A study of Mus musculus with 5 samples.

Results

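The 10 genes described here are transcripts made by the growing oocyte and expected to be cleared once the embryo has begun to divide. They were chosen by symbol: the zona pellucida genes Zp1, Zp2 and Zp3, the secreted-factor genes Gdf9, Bmp15 and Oosp1, the cytoplasmic genes Mos and Oas1d, and the transcription factor genes Figla and Nobox. All 10 were found among the 22026 gene symbols of the files, and all 10 passed the filter of a mean of at least 1 FPKM over the libraries (a level scaled to transcript length and to the mapped fragments of the library). Because of the length scaling, levels of different genes can be set side by side.

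RNA-seq was carried out on mouse embryos of strain B6D2F1 at the 4-cell stage, all made by nuclear transfer, in which a donor nucleus is placed in an oocyte that has lost its own. There were 5 libraries, 1 for each group: no treatment, luciferase, knockdown of the histone variant H3.3, knockdown with H3.3 mRNA, and knockdown with H3.2 mRNA. The title of the H3.2 mRNA library conflicts with its treatment tag, which names H3.3 mRNA, and the title was followed. The sources used here do not give the donor cell, the way the knockdown was done or the number of embryos per library. The source names call the untreated, knockdown and H3.3 mRNA embryos NT, and the luciferase and H3.2 mRNA embryos SCNT. The files divide in the same way by number format: every value of 0 was written with decimals in the 2 SCNT files and without them in the 3 NT files. The sources used here do not say whether this marks separate experiments.

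With 1 library per group there was no replicate, no error could be given and no test was made. The sequencing depth is unknown, because the files hold no counts and low values showed no steps of whole reads. The calls below required 4-fold or more between libraries, which is 2 on the scale of log2(FPKM + 1). The target genes H3f3a and H3f3b had levels of 783 and 4484 FPKM without treatment, of 3503 and 2230 FPKM with luciferase, and of 128 and 535.2 FPKM in the knockdown. They had levels of 95.5 and 371 FPKM in the library labelled H3.3 mRNA, both below the knockdown, so the values of the target do not show the mRNA that its label names. With H3.2 mRNA they had levels of 129 and 292 FPKM. The phrase "with H3.3 mRNA" below stands for the label of that library. The embryo label was checked against fixed marker lists. Of 12 cleavage-stage genes, 9 were found. All 9 stood above 0 in the untreated, luciferase and knockdown libraries and 8 of 9 in each add-back library. Of all 22026 genes, between 10443 and 12300 stood above 0 in a library. Some of the 9 were low, such as Zscan4d at 0.06 FPKM in the knockdown and Zfp352 at 1.37 FPKM with luciferase. Of 10 fibroblast markers, 7 were listed at 0 in every library and none passed the filter, as was true of 8882 of all 22026 genes. The other 3, Col1a2, Pdgfra and Fbn1, were above 0 in the luciferase library only, at 2.48, 4.23 and 2.19 FPKM. Of 10 granulosa and cumulus markers, 5 were listed at 0 in every library, among them Has2 and Ptx3. The sum over that list was 192 FPKM in the untreated library, 9.71 FPKM with luciferase, 0 in the knockdown, 36.5 FPKM with H3.3 mRNA and 23.8 FPKM with H3.2 mRNA. Nearly all of the untreated sum came from Tnfaip6, at 185 FPKM.

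An oocyte stores large amounts of mRNA while it grows, and the embryo destroys most of that store in a wave around fertilisation and the first divisions. The zona pellucida is the glycoprotein coat that the oocyte secretes around itself, built in the mouse from ZP1, ZP2 and ZP3. GDF9 and BMP15 are secreted growth factors of the TGF-beta family through which the oocyte directs the surrounding granulosa cells. FIGLA and NOBOX are transcription factors of the oocyte that are needed for follicle formation, and FIGLA, a basic helix-loop-helix protein, acts on the zona genes through E-box sequences.

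Of the 10 genes, 5 had a promoter among the RefSeq sequences given for GRCm38.p6: Zp3, Bmp15, Oosp1, Figla and Nobox. Zp1, Zp2, Gdf9, Mos and Oas1d were not in it. The 250 bases before the start are shown for Zp3 (chr5:135979855-135980104, plus strand), Oosp1 (chr19:11691052-11691301, minus strand) and Bmp15 (chrX:6320725-6320974, minus strand). Zp3 and Oosp1 are shown because they had their highest level in the untreated and their lowest in the luciferase library, and Bmp15 because it did not. Each runs 5′ to 3′ in the direction of the gene, with capitals at the E-box CANNTG and at the NOBOX elements TAATTA and TAATTG, searched on both strands.
Zp3: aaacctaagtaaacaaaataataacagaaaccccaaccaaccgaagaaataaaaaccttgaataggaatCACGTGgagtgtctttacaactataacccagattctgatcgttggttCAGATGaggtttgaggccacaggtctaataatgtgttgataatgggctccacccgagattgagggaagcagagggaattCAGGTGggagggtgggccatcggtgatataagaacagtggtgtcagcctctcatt
Oosp1: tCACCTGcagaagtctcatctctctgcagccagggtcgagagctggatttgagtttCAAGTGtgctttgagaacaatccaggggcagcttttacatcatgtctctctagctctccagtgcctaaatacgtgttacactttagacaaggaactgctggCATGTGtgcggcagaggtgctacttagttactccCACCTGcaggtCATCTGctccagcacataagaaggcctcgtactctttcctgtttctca
Bmp15: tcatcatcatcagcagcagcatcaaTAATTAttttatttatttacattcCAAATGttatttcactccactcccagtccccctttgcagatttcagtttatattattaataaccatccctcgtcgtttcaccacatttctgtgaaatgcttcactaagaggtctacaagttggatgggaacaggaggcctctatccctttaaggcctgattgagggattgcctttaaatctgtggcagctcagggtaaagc

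The Zp3 window held 3 E-boxes, the Oosp1 window 5, the Figla and Nobox windows 2 each and the Bmp15 window 1. The sequence CANNTG is common: 66.2% of the 32851 promoter windows of this length in the table held it. The form CACGTG, present in 6.02% of windows, was found in Zp3 from 181 to 176 bases before the start. The form CAGGTG, which reads CACCTG on the other strand and occurred in 17.2% of windows, was found in Zp3, Oosp1, Figla and Nobox. TAATTA, in 4.84% of windows, was found in Bmp15 only among the 5 windows, and TAATTG, in 7.17% of windows, in none of them. These are letter matches and do not show binding.

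The luciferase library was lowest, alone or tied at 0, for nearly all of these oocyte genes, and the untreated library was highest for 5 of them. The summed level of the 10 genes was 2957 FPKM in the untreated library, 193 FPKM in the luciferase library, 1187 FPKM in the knockdown, 791 FPKM with H3.3 mRNA, and 683 FPKM with H3.2 mRNA. As a share of all FPKM this was 0.0832%, 0.00565%, 0.0332%, 0.026% and 0.0277% in the same order. Gdf9 made up between 25.9% and 46.4% of these sums. The untreated library was highest at 5 genes, the knockdown at 3 and the H3.2 mRNA library at 2. The luciferase library was lowest at 9 of 10, with Zp2 as the exception. It was lowest alone at 6, and tied at 0 with other libraries at Mos, Figla and Nobox. The shares of all genes with these single ranks were not counted. Zp3, Gdf9, Oosp1, Mos and Oas1d were highest in the untreated and lowest, alone or tied, in the luciferase library. This order was shared by 7.52% of all genes past the filter. In bulk RNA, stored transcript that is left and transcript newly made cannot be told apart, nor can fewer cells and less RNA per cell.

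**Figure D1:**
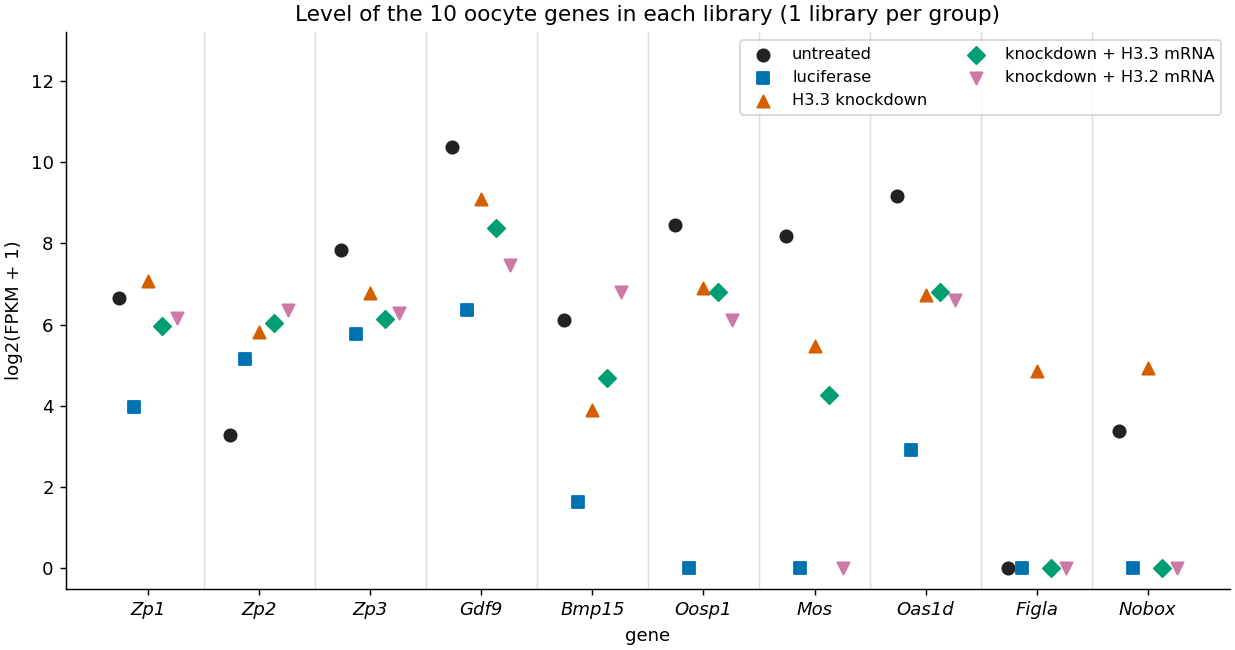
Level of each of the 10 genes as log2(FPKM + 1), with 1 point per library. The luciferase square is the lowest point or tied at 0 for 9 genes, whereas for Zp2 the untreated circle is lowest, at 8.82 FPKM.

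The zona genes were above 0 in all 5 libraries, but not in a constant proportion. Zp3, the zona component classically described as the sperm receptor, stood at 229 FPKM in the untreated library, 54.0 FPKM with luciferase, 109.7 FPKM in the knockdown, 69.2 FPKM with H3.3 mRNA and 77.3 FPKM with H3.2 mRNA. Zp1, which cross-links the filaments of the coat, stood at 99.6, 14.7, 133, 61.8 and 70.4 FPKM in that order. The knockdown and untreated libraries were thus the higher ones for both genes and the luciferase library the lowest.

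Zp2, the component that is cleaved after fertilisation to block further sperm, was the only member for which the untreated library alone was lowest. It stood at 8.82 FPKM in the untreated library, 34.6 FPKM with luciferase, 55.3 FPKM in the knockdown, 65.2 FPKM with H3.3 mRNA and 81.85 FPKM with H3.2 mRNA. Zp2 therefore supplied 2.61% of the summed zona FPKM in the untreated library and 33.5%, 18.5%, 33.2% and 35.7% in the others. The ratio of Zp3 to Zp2 was 26.0 in the untreated library and between 0.944 and 1.98 in the other 4. In the 2 add-back libraries the genes were close to level, with each at 30.7% to 35.7% of the sum. The sum itself ranged from 103 FPKM with luciferase to 337 FPKM in the untreated library, a narrower range than that of the secreted-factor genes.

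**Figure D2:**
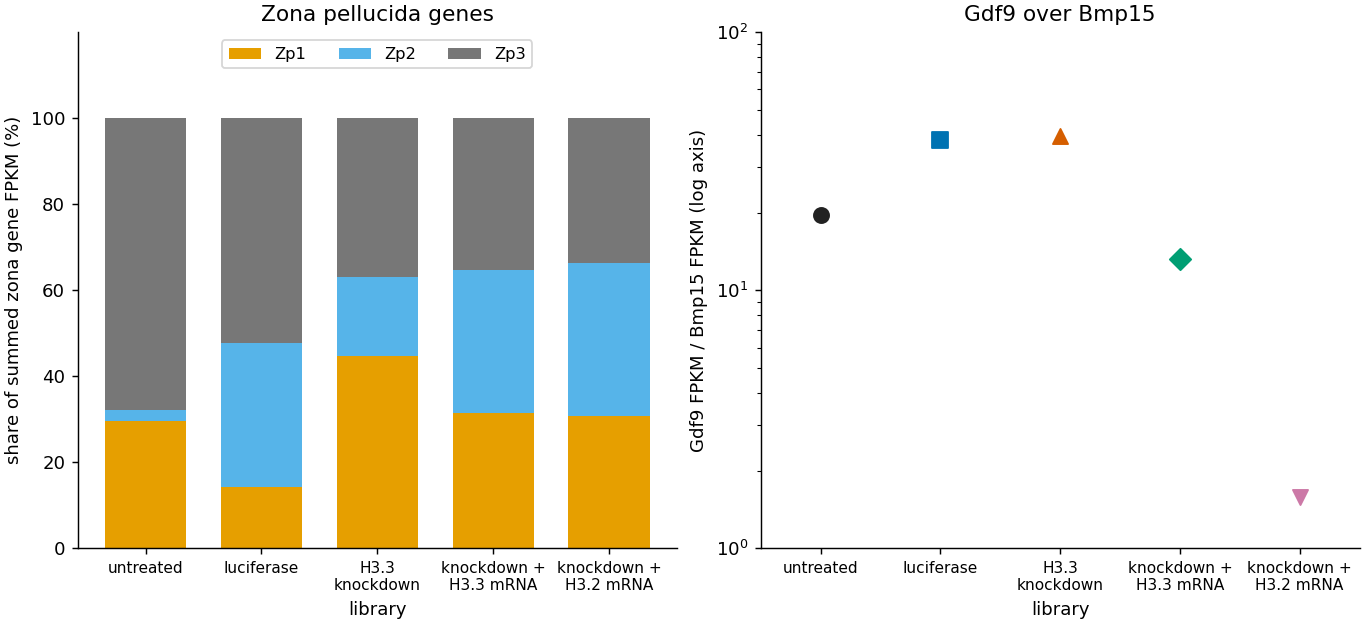
Left, share of the summed FPKM of Zp1, Zp2 and Zp3 held by each gene in each library, in percent. Right, ratio of Gdf9 to Bmp15 FPKM on a log axis. Zp2 is the thin band of 2.61% in the untreated library, and the Gdf9 to Bmp15 ratio is lowest, at 1.58, with H3.2 mRNA.

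Gdf9 was the most abundant of the 10 genes in every library. It stood at 1332 FPKM in the untreated library, 81.25 FPKM with luciferase, 550.2 FPKM in the knockdown, 330.2 FPKM with H3.3 mRNA and 177 FPKM with H3.2 mRNA. Among the genes above 0 in the same library, it ranked above 94.5% in the untreated, 59.8% in the luciferase, 86.4% in the knockdown, 81.7% in the H3.3 mRNA and 73.9% in the H3.2 mRNA library. All 3 NT libraries thus lay above both SCNT libraries. In RefSeq, Gdf9 overlaps Uqcrq, a respiratory chain gene, and the sources used here do not say whether reads were counted by strand. Uqcrq ranged from 107 FPKM with luciferase to 347 FPKM in the knockdown.

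Bmp15, whose product pairs with GDF9, did not keep the order of Gdf9. It stood at 68.2 FPKM in the untreated library, 2.13 FPKM with luciferase, 13.9 FPKM in the knockdown, 24.9 FPKM with H3.3 mRNA and 112 FPKM with H3.2 mRNA. The H3.2 mRNA library was the highest, followed by the untreated library. The ratio of Gdf9 to Bmp15 was 19.5 in the untreated library, 38.1 with luciferase, 39.5 in the knockdown, 13.3 with H3.3 mRNA but 1.58 with H3.2 mRNA. Oosp1, which encodes a secreted protein of the oocyte, stood at 349.95 FPKM in the untreated library, 118 FPKM in the knockdown, 112 FPKM with H3.3 mRNA and 68.2 FPKM with H3.2 mRNA. It was listed at 0 with luciferase.

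Mos, the kinase that activates the MAP kinase pathway and holds the egg in metaphase II, stood at 289 FPKM in the untreated library, 43.15 FPKM in the knockdown, and at 18.2 FPKM in the H3.3 mRNA library. It was listed at 0 in both SCNT libraries. Oas1d, an oocyte member of the oligoadenylate synthetase family that lacks the enzymatic activity of its antiviral relatives, stood at 571 FPKM in the untreated library, 6.55 FPKM with luciferase, 105.7 FPKM in the knockdown, 110.1 FPKM with H3.3 mRNA and 96.4 FPKM with H3.2 mRNA. Its 3 libraries under the knockdown label were close to each other, with the untreated library far above and the luciferase library far below. Near-identical copies of the family, and the pseudogene Gm7573 that overlaps Oas1d in RefSeq, can trade reads with it.

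The transcription factor genes were listed at 0 in most libraries but not in the knockdown. Figla stood at 27.8 FPKM in the knockdown with a listed 0 in each of the other 4, so it passed the filter only through the knockdown library. Nobox stood at 9.47 FPKM in the untreated library and 29.7 FPKM in the knockdown, with a listed 0 in the others. Both were thus highest in the knockdown, where they ranked above 32.3% and 33.6% of the genes above 0. A listed 0 may be a failed estimate, which was not tested. None of 10 genes used by every cell was at 0 in any library. Among them were Gapdh, at 6.23 to 22.8 FPKM, and Eef1a1, at 8710 to 18823 FPKM.

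The luciferase library was set against the untreated library first, since the distance of the controls is the measure for the rest. At least 4-fold lower with luciferase were 8 of the 10 genes, against 13.4% of all 13144 genes past the filter, and 0 were at least 4-fold higher, against 23.5%. The 8 were Zp1, Zp3, Gdf9, Bmp15, Oas1d and the genes listed at 0 with luciferase, Oosp1, Mos and Nobox. The level of Zp3 was 4.24-fold and that of Oas1d 87.2-fold higher in the untreated library. Zp2 was 3.92-fold higher with luciferase. The median difference of the 10 genes was -3.70 on the log2 scale, against 0.02 over all genes. Among the 6 genes above 0 in both libraries the median was -3.35. The treatment and the SCNT label cannot be told apart in this comparison, and the part of the higher Tnfaip6 level in the untreated library was not tested.

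The knockdown lay between the controls at 6 genes, Zp3, Gdf9, Bmp15, Oosp1, Mos and Oas1d, with the untreated library above the luciferase library each time. This order held for 14.1% of all genes. Against the untreated library, with which the knockdown shares the NT label, 3 genes were at least 4-fold lower (background 15.6%): Bmp15, Mos and Oas1d. Higher by that margin were 2 genes (background 16.8%), Zp2, with a level 6.27-fold that of the untreated library, and Figla, listed at 0 there. The median difference was -1.16 on the log2 scale, against 0.00 over all genes.

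Against the luciferase library, 8 genes were at least 4-fold higher in the knockdown (background 9.74%) and 0 lower (background 18.9%). All 10 lay above the luciferase value, and the share of all genes that did was not counted. Figla had to lie above it, since it passed the filter only through its knockdown value. The median difference was 3.46, against -0.12 over all genes. Of the 8 genes, Oosp1, Mos, Figla and Nobox were listed at 0 with luciferase, and the other 4 were Zp1, Gdf9, Bmp15 and Oas1d, with levels 9.04-fold, 6.77-fold, 6.54-fold and 16.1-fold those of the luciferase library. With a pseudocount of 10 FPKM in place of 1 the count was 5. The knockdown library is labelled NT and the luciferase library SCNT, so the knockdown and that label cannot be told apart here. Both comparisons share the knockdown library, and the 6 genes between the controls lie on opposite sides in them. Figla was the only member at least 4-fold from each control on the same side, and it was higher (background 4.98%). Because Figla passed the filter only through its knockdown value, every call of it, also against the add-back libraries, follows from that value. None of the 10 was at least 4-fold lower than each control (background 6.35%).

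**Figure D3:**
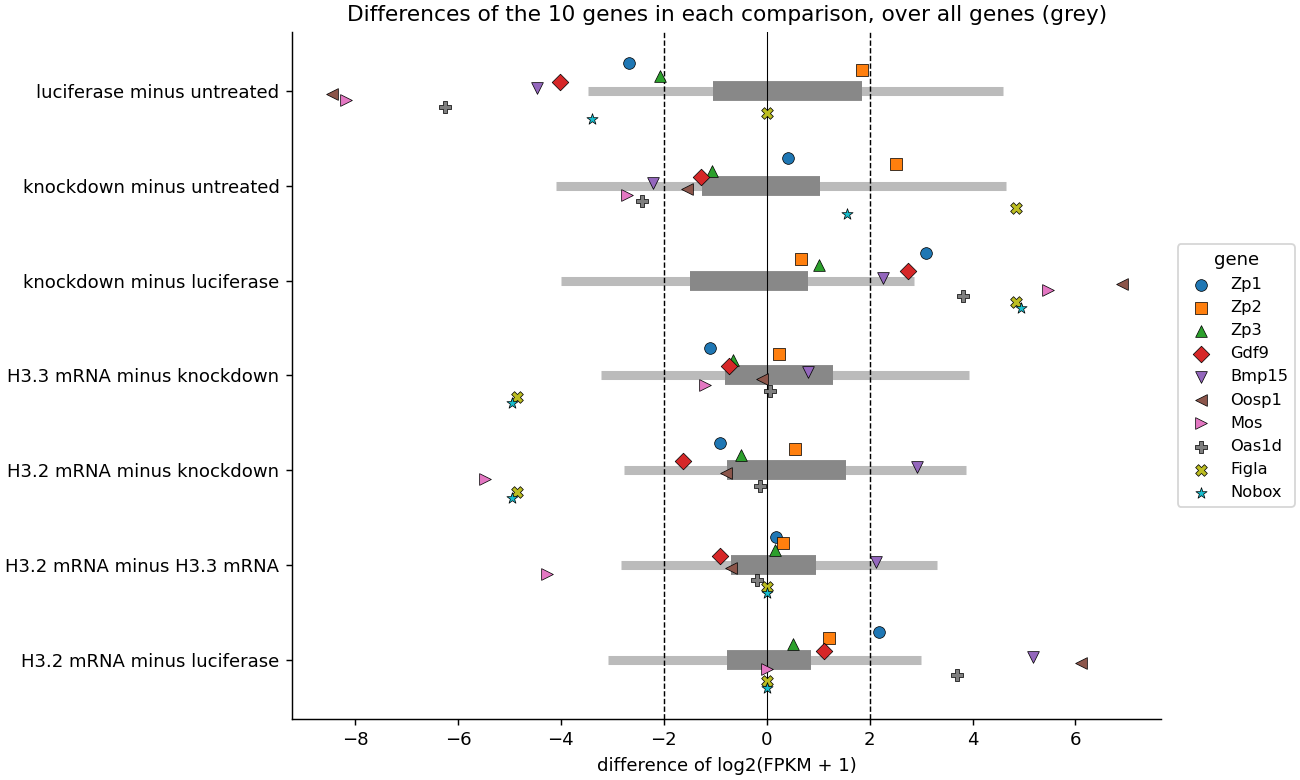
Difference of log2(FPKM + 1) for each of the 10 genes in 7 comparisons. Thick and thin grey bars span the middle 50% and 90% of all 13144 genes, and dashed lines mark 4-fold. Most points lie left of the dashed line for luciferase minus untreated (8 genes) and right of it for knockdown minus luciferase (8 genes). For the add-back libraries against the knockdown, most points lie between the lines, as do the thick bars of all genes.

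In the library labelled H3.3 mRNA, H3f3a and H3f3b levels lay below those of the knockdown. Most of the members stood within 4-fold of the knockdown there, as did most of all genes. At least 4-fold lower than in the knockdown were 2 genes (background 10.1%), Figla and Nobox, both listed at 0 with H3.3 mRNA, and 0 were higher (background 16.4%). The median difference was -0.70, against 0.00 over all genes. Among the 8 genes above 0 in both libraries it was -0.37. Oosp1 and Oas1d differed least, at 0.945-fold and 1.04-fold of the knockdown level. Gdf9 stood at 0.6-fold and Zp1 at 0.464-fold of it, so both lay below the untreated level and nearer to the luciferase level than in the knockdown.

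With H3.2 mRNA, 3 genes were at least 4-fold lower than in the knockdown (background 9.11%): Mos, Figla and Nobox, all listed at 0. Bmp15 was higher (background 19.5%), with 8.02-fold the knockdown level. The median difference was -0.85, against 0.15 over all genes. These libraries differ in the word of their source names too, so the add-back and that label cannot be told apart. Against the luciferase library, which shares the SCNT label, 4 genes were at least 4-fold higher with H3.2 mRNA (background 10.4%) and 0 lower (background 9.84%). They were Zp1 at 4.78-fold, Bmp15 at 52.5-fold, Oas1d at 14.7-fold, and Oosp1, listed at 0 with luciferase. Set against each other, the add-back libraries, whose source names differ as well, differed by at least 4-fold at Bmp15, 4.49-fold higher with H3.2 mRNA (background 12.6%), and at Mos, listed at 0 there (background 8.38%). The zona genes differed by 1.12-fold to 1.26-fold between the add-back libraries.

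The libraries labelled NT and SCNT were also compared. At 4 of the 10 genes, Gdf9, Oosp1, Mos and Oas1d, all 3 NT libraries lay above both SCNT libraries, against 8.48% of all genes. For Oas1d the margin was small, with a lowest NT value of 105.7 FPKM and a highest SCNT value of 96.4 FPKM. At 0 genes did both SCNT libraries lie above every NT library (background 11.9%). Without the H3.3 mRNA library 7 genes had the NT libraries above (background 16.4%), and without the H3.2 mRNA library also 7 (background 16.0%). Without the untreated, luciferase or knockdown library the count was 4, with backgrounds of 13.9%, 16.2% and 14.8%.

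Of the other oocyte-made transcripts, more were lower than higher with luciferase. Of 14 such genes past the filter, 8 were at least 4-fold lower than in the untreated library (background 13.4%) and 0 higher (background 23.5%), with a median of -2.43. In the knockdown, 6 of them were at least 4-fold higher than with luciferase (background 9.74%). Bcl2l10, an oocyte BCL2 family gene, stood at 2781 FPKM in the untreated library, 59.4 FPKM with luciferase, 348 FPKM in the knockdown, 194 FPKM with H3.3 mRNA and 339.9 FPKM with H3.2 mRNA. H1foo, the linker histone of the oocyte, stood at 1925, 74.8, 351, 426 and 179.6 FPKM in the same order. Dppa3, a maternal factor that protects DNA methylation in the early embryo, did not share this order, with 13794, 10257, 19535, 8550.2 and 4818 FPKM. Among the other oligoadenylate synthetase genes, 7 passed the filter. Against the untreated library, 5 of the 7 were at least 4-fold lower with luciferase (background 13.4%) and 4 in the knockdown (background 15.6%). Both counts include Oas1f, which passed the filter only through its untreated level of 7.68 FPKM and was listed at 0 elsewhere, so its calls follow from that value. Oas1e, like Oas1d a member expressed in oocytes, stood at 89.1 FPKM in the untreated library, 6.9 FPKM with luciferase, 18.2 FPKM in the knockdown, 22.2 FPKM with H3.3 mRNA and 61.1 FPKM with H3.2 mRNA. Oasl2, the member of highest mean level, stood at 87.2 FPKM in the untreated library, 14.5 FPKM with luciferase, 81.8 FPKM with H3.3 mRNA and 14.2 FPKM with H3.2 mRNA, and was listed at 0 in the knockdown. Oas1a, Oas1g and Oas3 were listed at 0 in every library, and Oas1b and Oas2 in all but the H3.2 mRNA library.

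Genes that act with the members were counted in the same way, and the background for luciferase against untreated is again 23.5% higher and 13.4% lower. Of 15 genes of the MOS and MAP kinase arrest pathway, 3 were at least 4-fold higher and 2 lower with luciferase than in the untreated library, with a median of 0.01. Cyclin B1 (Ccnb1) stood between 1101 and 1611 FPKM in all 5 libraries, whereas Map2k2, a kinase downstream of MOS, was higher with luciferase, at 2179 FPKM against 75.1 FPKM. Of 13 receptor, SMAD and antagonist genes for GDF9 and BMP15 past the filter, 2 were higher and 1 lower. Smad4, the common mediator of the pathway, stood at 180.3 FPKM without treatment and at 150.1 FPKM with luciferase. Of 5 egg coat and sperm fusion genes, 2 were lower with luciferase. Astl, the protease that cleaves ZP2 at fertilisation, stood at 389 FPKM in the untreated library, 35.2 FPKM with luciferase, 18.0 FPKM in the knockdown, 48.9 FPKM with H3.3 mRNA and 72.1 FPKM with H3.2 mRNA. Its knockdown level was thus below the luciferase level, unlike that of the zona genes.

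Among 7 oocyte transcription factor and partner genes, 1 was higher and 2 were lower with luciferase. Tcf3, which encodes the partner of FIGLA at E-boxes, stood at 510.1 FPKM in the untreated library, 80.1 FPKM with luciferase, 47.9 FPKM in the knockdown, 139 FPKM with H3.3 mRNA and 102 FPKM with H3.2 mRNA. Of 14 genes that bind or degrade maternal mRNA, 3 were higher and 2 lower with luciferase. Btg4, an adaptor that brings the CCR4-NOT deadenylase to maternal mRNA, stood at 1390 FPKM in the untreated library, 29.2 FPKM with luciferase, 271 FPKM in the knockdown, 189 FPKM with H3.3 mRNA and 200.1 FPKM with H3.2 mRNA. Cnot7 and Cnot8, catalytic subunits of that deadenylase, ranged from 177 to 261 FPKM and from 1018 to 1846 FPKM. With H3.2 mRNA, 7 of the 14 were at least 4-fold higher than in the knockdown (background 19.5%) and 0 lower (background 9.11%).

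**Figure D4:**
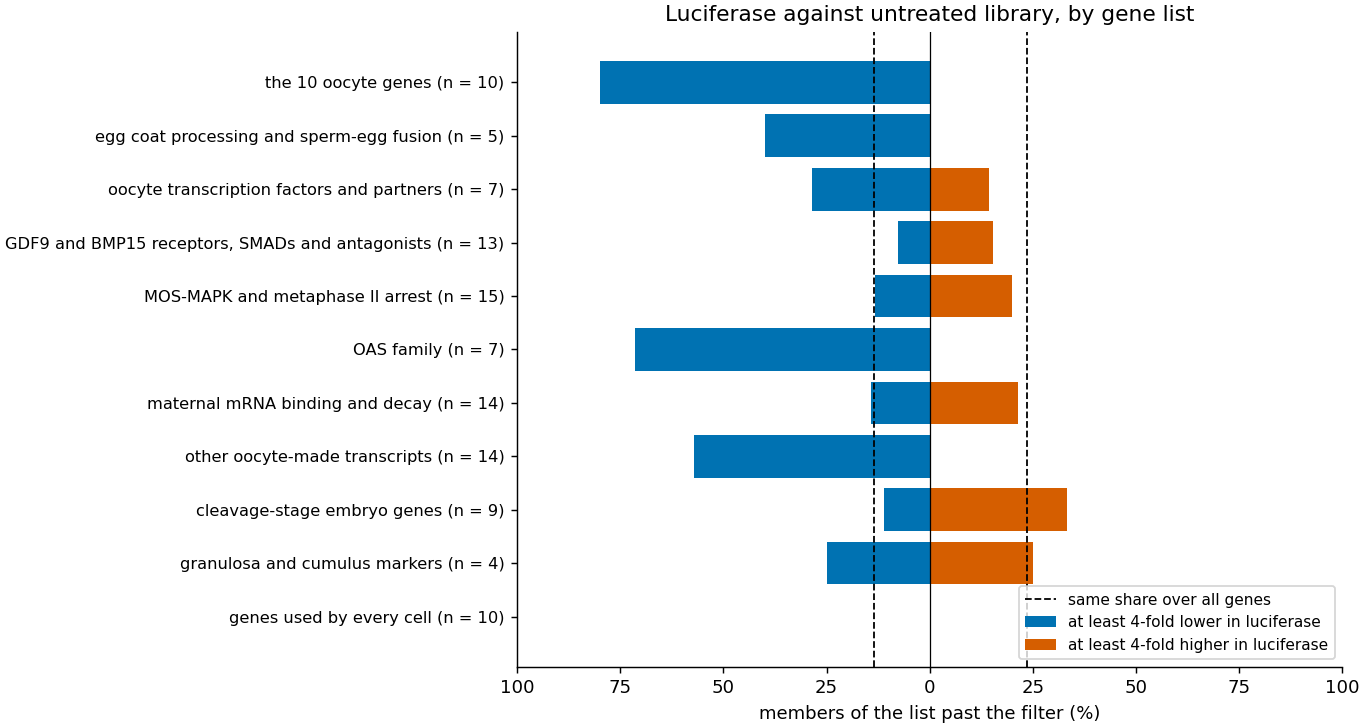
Share of each gene list, among members past the filter, that was at least 4-fold lower (left, blue) or higher (right, orange) with luciferase than in the untreated library. Dashed lines give the shares over all genes, 13.4% lower and 23.5% higher. The oocyte genes have 8 of 10 on the left, and the genes used by every cell have none on either side.

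The genes nearest in pattern to the 10 oocyte genes were sought among 6055 named genes that averaged 50 FPKM or more. Each gene's log2 values were centred on their mean over the 5 libraries, and the measure was the root mean square distance from the mean profile of the 10 genes. The nearest was Psmb10, an immunoproteasome subunit gene, at a distance of 0.21 on the log2 scale, against a median of 1.50 over the genes ranked. It stood at 476 FPKM in the untreated library, 29.0 FPKM with luciferase, 325 FPKM in the knockdown, 115 FPKM with H3.3 mRNA and 99.4 FPKM with H3.2 mRNA. Map3k11, Plat, March9, Pigt, Cdkn2d, Brf2, Tcl1b1, Chpf2 and Oxnad1 followed, at distances from 0.28 to 0.42. Among them, Plat encodes tissue plasminogen activator, an mRNA stored in the mouse oocyte, and stood at 204 FPKM without treatment and at 16.5 FPKM with luciferase. These genes were selected for a small distance, whereas the members were not. The members lay farther from their mean, from 0.44 for Zp1 and 0.45 for Gdf9 to 1.98 for Zp2 and 2.15 for Mos. Oosp1, at 1.73, and Figla, at 1.78, also lay beyond the median of 1.50 over the genes ranked, as did Zp2 and Mos. The mean profile thus describes Zp1 and Gdf9 best, and its knockdown value includes those of Figla and Nobox, which were highest there.

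**Figure D5:**
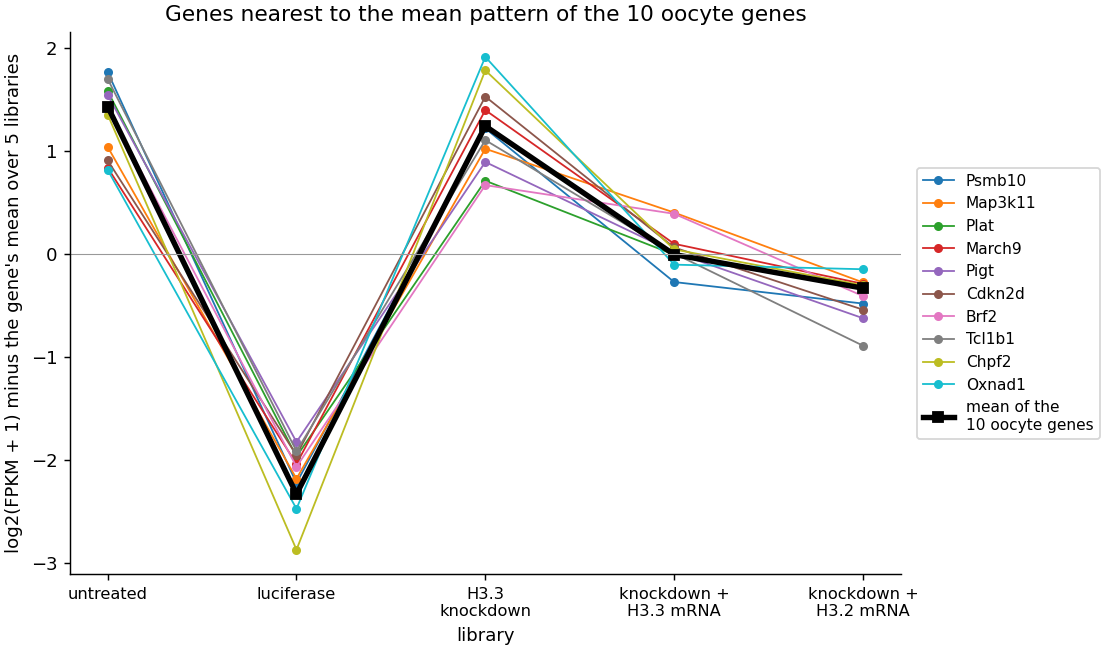
Centred log2(FPKM + 1) in the 5 libraries for the 10 nearest genes (thin lines) and for the mean of the 10 oocyte genes (thick black line); the lines join libraries for reading only. The 10 nearest genes were selected for a small distance from the mean profile, so their lines follow it. Every line is lowest in the luciferase library, where the mean profile lies at -2.33. The mean profile lies at 1.43 in the untreated library and 1.24 in the knockdown.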

How the data were processed

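Reads of 51 bases from TruSeq libraries were used, per the labels' protocols. The authors aligned them with TopHat and estimated levels with Cufflinks on mm9, per the submitters' processing notes, and deposited 1 FPKM value per gene symbol and library. Versions and annotation are not given in the sources used here. FPKM depends on the library total, so a shift in abundant transcripts moves all other values.

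Groups came from the titles. Differences were taken on log2(FPKM + 1), a scale that shrinks changes of low genes, over the 13144 genes that averaged 1 FPKM or more, with Python 3.11.15, numpy 2.4.6 and pandas 2.3.3. The comparison code was checked on simulated data. With 1 library per group no test was made, and intervals are not given.

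The 10 genes, 11 further lists and the comparisons were chosen with earlier results of these data known. Of 125 list genes, 122 were found, and the rest were not analysed here; a further gene is not reported here. All 10 members, up to 3 genes of highest mean FPKM per list and the 10 genes nearest in pattern (no clone or model names) are named by rule; other list genes named were picked after their values were seen. Alternatives were other pseudocounts, filters, scalings and folds. No coordinate of mm9 was used, and promoter positions are those of GRCm38.p6.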

Additional observations from a re-analysis of the deposited data

How the results depend on the processing

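No paired analysis was possible because each group has 1 library. Over all alternatives run, 176 of 206 values stayed within 1.5-fold of the reported value. These include the setting with no filter, which could not move any value, because all 10 genes passed the filter. The median difference kept its sign in 53 of 56 settings, where a median of 0 that stayed at 0 was counted as kept. The other 3 concern H3.2 mRNA minus H3.3 mRNA, whose reported median is 0. For luciferase minus untreated, the median was -4.49 with a pseudocount of 0.1 FPKM and -2.42 with 10 FPKM. Of the 6 genes above 0 in both libraries, 5 were lower (background 13.3%). With upper-quartile scaling (background 25.9%) or at 2-fold (background 34.2%), 1 gene (Zp2) was higher. For knockdown minus untreated, the higher genes numbered 0 with a pseudocount of 10 FPKM and 1 with a filter at 10 FPKM, quantile normalization, values above 0 only, or 8-fold; the lower genes numbered 6 at 2-fold and 0 at 8-fold. For knockdown minus luciferase, a pseudocount of 10 FPKM gave a median of 2.20 and 5 higher genes (background 4.33%). The 6 genes above 0 in both gave a median of 2.50 and 4 higher genes (background 8.52%). For H3.3 mRNA minus knockdown, the lower genes numbered 0 with a pseudocount or filter of 10 FPKM or with values above 0 only. The backgrounds were 4.53%, 9.09% and 6.54%. At 2-fold the lower genes numbered 4 (background 21.7%). For H3.2 mRNA minus knockdown, the lower genes numbered 1, 1 and 0 with that pseudocount, that filter and values above 0 only. The backgrounds were 4.59%, 8.76% and 7.76%. At 8-fold 0 genes were higher (background 10.3%). For H3.2 mRNA minus H3.3 mRNA, a pseudocount of 10 FPKM left 0 higher (background 2.10%) and 0 lower (background 2.18%). Values above 0 only left 0 lower (background 5.11%), and 8-fold left 0 higher (background 6.45%). Leaving out each library in turn, chosen after seeing the data, gave 4 to 7 genes with every remaining NT library above every remaining SCNT library. With fewer libraries to order, the background was 13.9% to 16.4%, against 8.48% with all libraries. Upper-quartile scaling moved the median of all genes for luciferase minus untreated from 0.02 to 0.37, with 7 members lower (background 10.7%). Median-of-ratios scaling moved that median to 0.13. Depth is unknown, so how firmly a listed 0 stands cannot be said.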
